A study of Sus scrofa with 6 samples.

Results

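Kruppel-like factors (KLFs) are transcription factors that bind GC-rich and CACCC elements through C2H2 zinc fingers at their C-terminal end. The 10 genes described here, KLF2, KLF3, KLF4, KLF5, KLF6, KLF9, KLF10, KLF11, KLF13 and KLF15, were taken by symbol from the FPKM table of 29884 genes. They were chosen by their symbols with their FPKM values in the 3 RA and 3 control libraries already known, so their difference between RA and control is a description without a test. The table held 17 KLF genes in all, and the 7 outside the list are given after the 10.

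The study followed the differentiation of pig (Sus scrofa) spermatogonia under retinoic acid in culture. Cells from testis that the labels call primitive spermatogonia received all-trans-retinoic acid (RA) at 2 umol/L (3 libraries) or the solvent ethanol at 0.1% as control (3 libraries). RA is the vitamin A metabolite that starts spermatogonial differentiation and meiotic entry in mammals. Age, breed and time in RA are not given in the labels, nor is it stated that libraries of a group were separate cultures or animals, so all p-values reflect the spread between these libraries only.

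Some KLFs mainly activate transcription and others recruit corepressors, and several members can compete for the same GC-rich sites. KLF4 is best known as a pluripotency and reprogramming factor and, in the mouse testis, as a factor of Sertoli cells and round spermatids. KLF2 and KLF6 are induced quickly by stress and serum, KLF10 and KLF11 by TGF-beta, and KLF9 and KLF15 by glucocorticoids. These roles are known from human and mouse cells.

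The libraries rested on 63836470 to 87520891 reads in RA and 62084199 to 79752197 in control. The RA-responsive genes CYP26A1, DHRS3, RARB and STRA8 were all higher in RA, with log2 changes of 3.45, 5.86, 2.14 and 1.10 (limma adjusted p at most 0.00126). RA replicate 2 stood apart within its group: the mean chi-square per gene was 93.0 and 105 against RA replicates 1 and 3, but 15.4 between those and 18.2 to 26.5 between control libraries. Germ cell markers were detected, with DAZL at 14.0 to 16.9 FPKM in RA and 18.0 to 19.8 FPKM in control. The Sertoli cell gene CLU was at 9373 to 10056 FPKM in RA and 9007 to 9473 FPKM in control, so transcripts of somatic testis cells were abundant in libraries labelled as spermatogonia. Fewer cells of a type and less RNA per cell cannot be told apart in bulk libraries.

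All 10 KLF genes had a lower mean log2 level in RA than in control. The difference in mean FPKM, RA from control, ran between -13.8% for KLF9 and -55.7% for KLF4. For 8 of the 10, every RA library lay below every control library, an arrangement found in 24.0% of the 14567 genes kept in the fit; the opposite arrangement was found in 23.9% of them and in 0 of the 10. In that fit 7 of the 10 were lower at an adjusted p under 0.05, and 0 were higher, where 25.9% of all genes kept passed, 12.0% lower and 13.9% higher. The median log2 change of the 10 was -0.43, beside -0.01 over all genes kept. These counts describe genes that were picked with this contrast in view. Log2 changes are differences, RA minus control, of log2(FPKM + 1), which understates changes of low values.

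**Figure D1:**
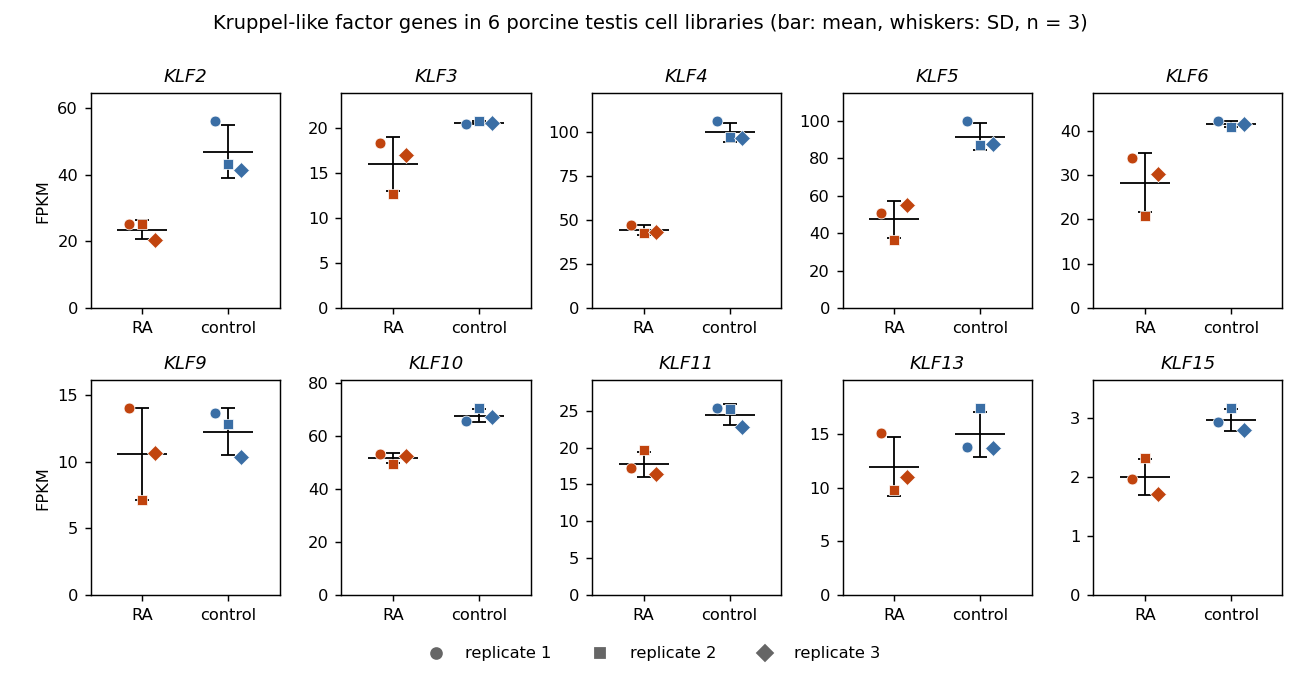
FPKM of the 10 KLF genes in each library, with RA left of control; symbols mark replicates 1 to 3, the bar is the mean and the whiskers are the SD (n = 3). The 3 RA points lie below the 3 control points in 8 panels, and they overlap for KLF9 and KLF13.

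KLF4, KLF2, KLF5 and KLF6 belong to the KLFs that mainly act as activators, though KLF4 also represses. KLF4 was at 47.4, 42.4 and 43.0 FPKM in RA replicates 1, 2 and 3, against 106, 97.0 and 96.8 FPKM in control replicates 1, 2 and 3. The highest RA value was less than the lowest control value by a wide margin, and libraries within a group lay close together. The means were 44.3 ± 2.72 and 99.98 ± 5.37 FPKM (SD, n = 3 each, as in all such pairs), a difference of -55.7% and a log2 change of -1.16 ± 0.07 (SE). Of the 14567 genes kept, 129 had a more negative log2 change than KLF4. It lies on chromosome 1, 248604817 to 248609574, minus strand, in the coordinates of the authors' table, whose genome build is not given in the sources used here.

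KLF2, a factor of endothelial and T cell quiescence, was at 25.1, 25.3 and 20.3 FPKM in the RA libraries and 56.1, 43.3 and 41.6 FPKM in the control libraries. The groups did not overlap, and control replicate 1 was the highest of the 6. The means were 23.6 ± 2.82 FPKM in RA and 47.0 ± 7.95 FPKM in control, a difference of -49.8% (log2 change -0.96 ± 0.13). KLF2 lies on chromosome 2, 61270733 to 61273037, minus strand.

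KLF5, which promotes proliferation of intestinal epithelium and smooth muscle, was at 50.8, 36.3 and 55.0 FPKM in RA and 99.7, 87.0 and 87.7 FPKM in control. All RA libraries were lower than all control libraries, with RA replicate 2 the lowest. The means were 47.4 ± 9.84 FPKM and 91.5 ± 7.15 FPKM, a difference of -48.2% (log2 change -0.95 ± 0.15). KLF5 lies on chromosome 11, 45370009 to 45386673, plus strand.

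KLF6, a growth-restraining factor induced in injured tissue, was at 33.7, 20.8 and 30.3 FPKM in RA and 42.1, 40.8 and 41.5 FPKM in control. The control libraries were nearly equal, while RA replicate 2 lay well below the other RA libraries. The means were 28.3 ± 6.69 FPKM and 41.5 ± 0.641 FPKM, a log2 change of -0.56 ± 0.16, or -0.37 ± 0.06 without RA replicate 2. KLF6 lies on chromosome 10, 66488445 to 66497830, plus strand.

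KLF3, on chromosome 8, 30024978 to 30060981, plus strand, represses through the corepressor CtBP. It was at 18.4, 12.7 and 17.0 FPKM in RA and 20.5, 20.8 and 20.6 FPKM in control. The RA libraries were all lower, and the log2 change was -0.36 ± 0.13 with all libraries and -0.21 ± 0.06 without RA replicate 2. KLF3 overlaps the opposite-strand ncRNA LOC100510918, at a mean of 0.998 FPKM in RA and 0.895 FPKM in control. The strand setting of the counting is not given, so reads of the pair may not be separable.

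KLF10, KLF11, KLF9 and KLF13 repress through the SIN3A corepressor. KLF10, known as TGF-beta-inducible early gene product, was at 53.0, 49.3 and 52.4 FPKM in RA and 65.5, 70.3 and 66.9 FPKM in control. Its values varied little within groups and did not overlap between them, giving means of 51.6 ± 1.97 and 67.6 ± 2.50 FPKM and a log2 change of -0.38 ± 0.06. Its close relative KLF11 was at 17.3, 19.6 and 16.4 FPKM in RA and 25.3, 25.3 and 22.8 FPKM in control. These groups did not overlap either, with means of 17.8 ± 1.69 and 24.5 ± 1.42 FPKM and a log2 change of -0.44 ± 0.09. KLF10 lies on chromosome 4, 34430132 to 34435990, plus strand, and KLF11 on chromosome 3, 126419011 to 126429890, minus strand.

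KLF9 and KLF13, short basic transcription element-binding factors, were the members whose groups overlapped. KLF9 was at 14.0, 7.09 and 10.6 FPKM in RA and 13.7, 12.8 and 10.3 FPKM in control. RA replicate 1 was the highest of all 6 libraries and RA replicate 2 the lowest. The log2 change of -0.23 ± 0.21 was about its own SE, and without RA replicate 2 it was 0.0021. KLF13 was at 15.1, 9.81 and 11.0 FPKM in RA and 13.8, 17.4 and 13.7 FPKM in control, a log2 change of -0.31 ± 0.16, or -0.19 ± 0.14 without RA replicate 2. RA replicate 1 lay within the control range. Both lie on the minus strand of chromosome 1, KLF9 at 223723613 to 223747661 and KLF13 at 143499136 to 143540233, where KLF13 overlaps LOC102164789, listed at a mean of 0.0513 FPKM in RA and 0.241 FPKM in control. KLF9 rested on 380 to 897 reads in RA and 469 to 797 in control, against 8079 to 12214 in RA and 17685 to 24931 in control for KLF4.

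KLF15, a glucocorticoid-induced factor of amino acid and glucose metabolism, had the lowest level of the 10 and lies on chromosome 7, 53877813 to 53890558, minus strand. It was at 1.97, 2.33 and 1.71 FPKM in RA and 2.94, 3.17 and 2.80 FPKM in control. The RA libraries were all lower. The means were 2.00 ± 0.313 and 2.97 ± 0.184 FPKM, a difference of -32.5%, and the log2 change was -0.41 ± 0.11 on the log2(FPKM + 1) scale and -0.57 with edgeR on recovered reads.

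The authors' deposited table of called genes listed 7 of the 10 as down (KLF2, KLF4, KLF5, KLF6, KLF10, KLF11 and KLF15), with log2 fold changes from -1.15 for KLF4 to -0.36 for KLF10 in that table. The 7 it listed were the 7 that were lower in the fit here. Both rest on the same libraries, and the 10 genes were picked with this contrast known. The authors' table listed 4195 called genes and that of non-coding genes 182, beside 29884 genes in the FPKM table.

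**Figure D2:**
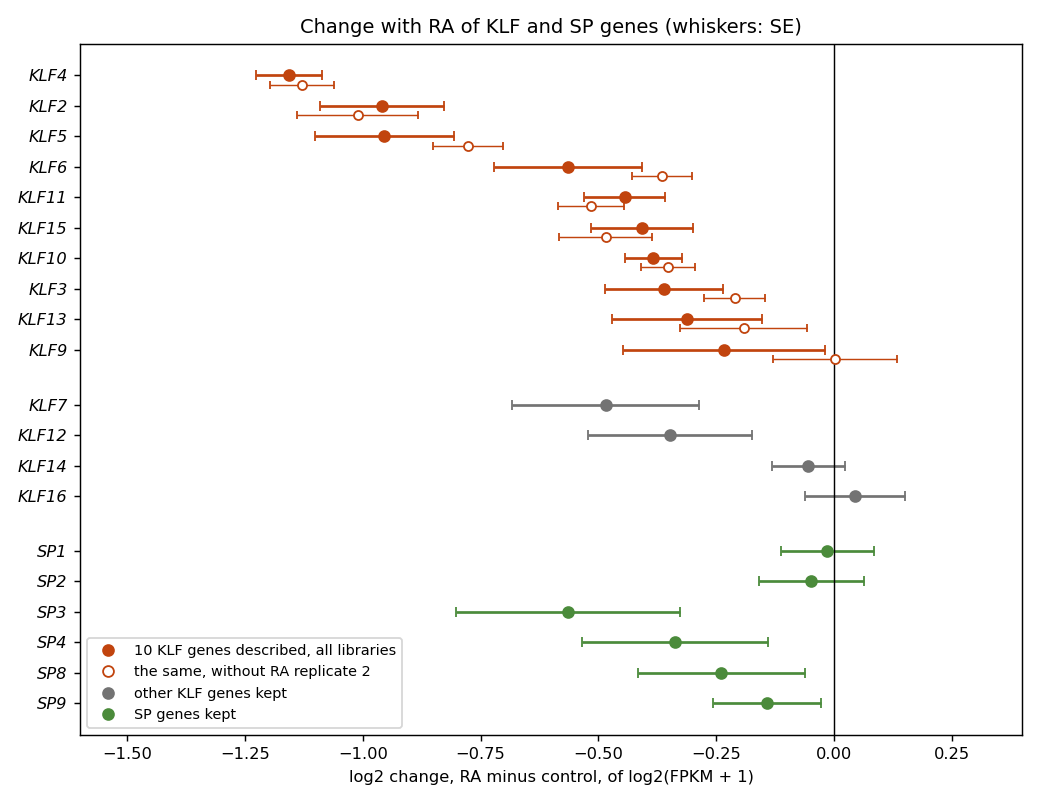
Log2 change, RA minus control, with its SE for the 10 KLF genes (filled: all libraries; open: without RA replicate 2) and for the other KLF and SP genes kept in the fit. KLF4 (-1.16), KLF2 (-0.96) and KLF5 (-0.95) lie farthest from 0, and KLF9 is at 0.0021 without RA replicate 2.

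The order of levels per length differed between the groups at its upper end. In RA the highest means were those of KLF10 (51.6 FPKM), KLF5 (47.4) and KLF4 (44.3), and neighbours among these overlapped between libraries. In control they were KLF4 (99.98 FPKM), KLF5 (91.5) and KLF10 (67.6); KLF4 and KLF5 overlapped, while KLF5 and KLF10 did not. KLF6, KLF2, KLF11, KLF3, KLF13, KLF9 and KLF15 followed in RA. In control the order was KLF2, KLF6, KLF11, KLF3, KLF13, KLF9 and KLF15, with overlap only between KLF2 and KLF6. In RA, KLF4 and KLF6, KLF2 and KLF11, and KLF9 and KLF15 were the neighbours that did not overlap.

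Summed over the 17 KLF genes of the table, the family reached 249 to 303 FPKM in the RA libraries and 435 to 476 FPKM in the control libraries. The 10 members made up 90.5% to 91.4% of that sum in RA and 93.0% to 93.6% in control. KLF4 held 15.1% to 17.0% of it in RA and 21.7% to 22.3% in control, and KLF10 held 17.5% to 19.8% in RA and 13.7% to 15.8% in control. Levels per length depend on the gene models: those of KLF9, KLF13 and KLF5 had 732, 879 and 1374 bases, the shortest of the 10, while the others had 1621 to 5675 bases.

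RA replicate 2 split the 10 genes. It held the lowest RA value of 7 members and the highest of 3, KLF2, KLF11 and KLF15. Its level divided by the mean of RA replicates 1 and 3 was 0.576 for KLF9, 0.65 for KLF6, 0.685 for KLF5, 0.716 for KLF3 and 0.752 for KLF13. The same ratio was near 1 for KLF10 (0.936) and KLF4 (0.939), and 1.11 for KLF2, 1.17 for KLF11 and 1.27 for KLF15. The log2 changes without that library were -1.13 ± 0.07 for KLF4, -1.01 ± 0.13 for KLF2 and -0.78 ± 0.07 for KLF5.

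**Figure D3:**
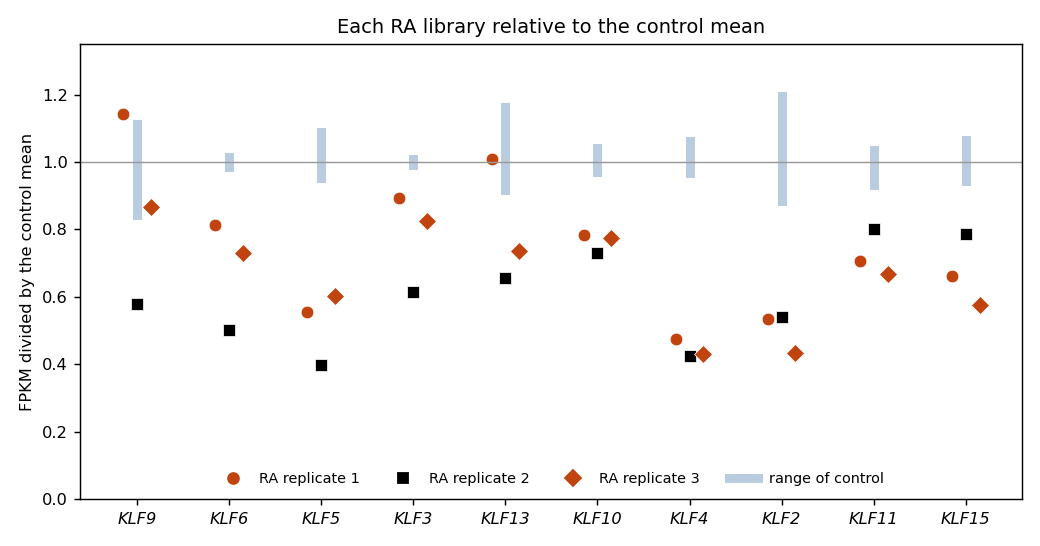
FPKM of each RA library divided by the control mean for the 10 KLF genes, ordered by how low RA replicate 2 (black squares) lies against RA replicates 1 and 3; blue bars span the 3 control libraries. The squares are the lowest RA library for 7 genes and the highest for KLF2, KLF11 and KLF15.

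Of the 7 KLF genes outside the list, 4 were kept in the fit, and 0 passed at a limma adjusted p under 0.05 (1 had an unadjusted p under 0.05; edgeR and DESeq2 on recovered reads also called 0). KLF16, the highest of these, was at 13.7 ± 1.70 FPKM in RA and 13.2 ± 1.19 FPKM in control (log2 change 0.04 ± 0.11, limma adjusted p = 0.778). KLF7 was at 10.7, 6.07 and 11.4 FPKM in RA and 12.6, 13.1 and 13.6 FPKM in control (-0.48 ± 0.20, limma adjusted p = 0.109, and 0.0377 without RA replicate 2); KLF7 was named after its values were seen. KLF1, KLF8 and KLF17 lay under the minimum mean of 0.5 FPKM. Since the list of 10 was drawn with values known, these 4 are what was left out and no independent contrast to it.

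SP factors bind the same GC-rich sites as KLFs. Of 9 SP genes 6 were kept and 0 passed (limma; 1 at an unadjusted p under 0.05; 0 with edgeR and with DESeq2). SP1 was at 9.45 ± 0.933 FPKM in RA and 9.54 ± 0.773 FPKM in control (log2 change -0.01 ± 0.10, limma adjusted p = 0.928). SP3, picked out afterwards for its values, was at 8.40, 3.92 and 8.05 FPKM in RA and 8.87, 10.9 and 10.6 FPKM in control (limma adjusted p = 0.116). RA replicate 2 was again the lowest library for SP3.

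Genes whose libraries ran most like those of KLF4 and KLF2 were sought by the distance between centred log2 profiles over the 6 libraries, among 12189 protein-coding genes. This distance includes the difference between RA and control, so the nearest genes share the fall of KLF4 or KLF2 by construction. A gene without change is far from both. For KLF4 they were the HMG-box gene TOX (distance 0.11), the paraoxonase PON2 (0.13) and PLPPR5 (0.15), where the median gene was at 1.45. Their log2 changes were -1.13, -1.14 and -1.17, beside -1.16 for KLF4. Shared regulation was not tested. For KLF2 they were the extracellular superoxide dismutase SOD3 (0.11), the neuropeptide galanin, GAL (0.22), and galectin-3, LGALS3 (0.23), where the median was 1.29. Like KLF2, SOD3 was highest in control replicate 1: it was at 160, 164 and 145 FPKM in the RA libraries and 364, 287 and 268 FPKM in the control libraries.

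Of 17 kept genes that act upstream of KLF genes in other systems, 5 fell and 0 rose (limma adjusted p under 0.05, beside 12.0% and 13.9% of all genes), with a median log2 change of -0.23. SMAD2, a TGF-beta and activin signal carrier, fell to 3.69 ± 0.722 FPKM in RA, against 6.92 ± 0.427 FPKM in control (limma adjusted p = 0.00452). MEF2C, the MADS-box factor that drives KLF2 and KLF4 downstream of ERK5 in endothelium, fell to 6.59 ± 1.82 FPKM in RA, against 12.5 ± 0.94 FPKM in control (limma adjusted p = 0.00903). FOXO3 fell to 12.0 ± 1.85 FPKM, against 18.9 ± 1.34 FPKM in control (limma adjusted p = 0.00668), and the mineralocorticoid receptor NR3C2 to 1.57 ± 0.28 FPKM, against 2.41 ± 0.244 FPKM (limma adjusted p = 0.0326). MEF2D was the remaining call. The ERK5 gene MAPK7 (log2 change -0.07, limma adjusted p = 0.657) and the glucocorticoid receptor NR3C1 (-0.39, limma adjusted p = 0.0938) did not pass; MEF2D, MAPK7 and NR3C1 were named after their values were seen.

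The count of 5 upstream genes that fell was 3 without RA replicate 1, without each control library in turn, with no filter on low values, with the replicate number as a block and after a correction for gene length. The length correction also called 2 upstream genes higher, SMAD3 and SRF, and without RA replicate 2 the same 2 rose while 6 genes fell, so the absence of rises does not hold in those settings. Leaving out RA replicate 1 put NR3C2 at a limma adjusted p of 0.0937, and leaving out control replicates 1, 2 and 3 put it at 0.0668, 0.121 and 0.0811. MEF2D lost its call in those cases and without RA replicate 3, at 0.0601 to 0.118.

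Of 13 genes of corepressors and coactivators that KLFs recruit, 3 fell and 0 rose, with a median log2 change of -0.21. Over all genes kept, 12.0% were lower and 13.9% higher. The histone deacetylase HDAC1 fell to 48.4 ± 1.71 FPKM in RA, against 61.8 ± 3.43 FPKM in control (log2 change -0.35 ± 0.06, limma adjusted p = 0.0072). The KLF3 partner CTBP2 fell to 13.0 ± 0.851 FPKM, against 16.1 ± 0.56 FPKM in control (limma adjusted p = 0.0245), and the acetyltransferase KAT2B to 3.69 ± 0.595 FPKM, against 5.31 ± 0.705 FPKM (limma adjusted p = 0.0486). KAT2B lost its call with any of the 6 libraries left out (0.05 to 0.167), and CTBP2 with any control library left out (0.0628 to 0.1), so HDAC1 was the 1 call of the 3 that held with each library left out. SIN3A, named after its values were seen, had a log2 change of -0.08 (limma adjusted p = 0.443). Of 8 genes of KLF protein turnover, ubiquitin ligases and their partners such as WWP1 and FBXW7, 0 passed (limma; 2 at an unadjusted p under 0.05; 0 with edgeR and with DESeq2). Without RA replicate 3, FBXW7 fell and the deacetylase HDAC3 rose, and length correction called 1 turnover gene higher and 1 lower.

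Genes that glucocorticoids induce, as they do KLF9 and KLF15, mostly moved: 7 of 10 fell and 2 rose, with a median log2 change of -0.38. Over all genes kept, 12.0% were lower and 13.9% higher. The kinase gene SGK1 fell to 25.0, 25.5 and 26.0 FPKM in the RA libraries, against 50.4, 52.7 and 57.0 FPKM in the control libraries (log2 change -1.03 ± 0.07, limma adjusted p = 4.85e-05). The phosphatase DUSP1 fell to 160 ± 3.92 FPKM in RA, against 277 ± 13.9 FPKM in control (limma adjusted p = 0.000143). TSC22D3, PER1, ZBTB16, ERRFI1 and HSD11B1 were the other 5 that fell, and were named after their values were seen. The rises were in CEBPD, to 187 ± 25.7 FPKM in RA against 89.7 ± 2.49 FPKM in control (limma adjusted p = 0.000329), and in NFKBIA, to 134 ± 11.6 FPKM against 79.9 ± 3.67 FPKM (limma adjusted p = 0.000549). CEBPD and NFKBIA are also known as inflammatory response genes, and FKBP5 did not pass (limma adjusted p = 0.644). Without 1 library, PER1 lost its call in 4 of 6 cases, with limma adjusted p-values from 0.0752 to 0.125 there, and ZBTB16 in 2, at 0.056 without RA replicate 1 and 0.055 without control replicate 1.

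Immediate early genes, the class to which KLF2, KLF4, KLF6 and KLF10 are often counted, moved in part. Of 17, 6 fell and 2 rose, beside 12.0% and 13.9% of all genes kept, with a median log2 change of -0.24. The stress factor ATF3 fell to 138, 141 and 130 FPKM in RA, against 271, 264 and 242 FPKM in control (log2 change -0.92 ± 0.07, limma adjusted p = 9.32e-05). JUN fell to 255 ± 9.36 FPKM, against 443 ± 34.0 FPKM in control (limma adjusted p = 0.000325), and NR4A1 to 76.7 ± 4.42 FPKM, against 119 ± 4.64 FPKM (limma adjusted p = 0.000541). DUSP1, shared with the glucocorticoid list, BTG2 and EGR2 also fell. EGR1 (log2 change 0.07, limma adjusted p = 0.649), FOS (-0.25, 0.0782) and MYC (-0.08, 0.275) did not pass. JUND and IER3 rose, but of these 2 calls 0 held without RA replicate 1, without control replicate 2, without control replicate 3 or with length correction. BTG2, EGR2, EGR1, FOS, MYC, JUND and IER3 were named after their values were seen.

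**Figure D4:**
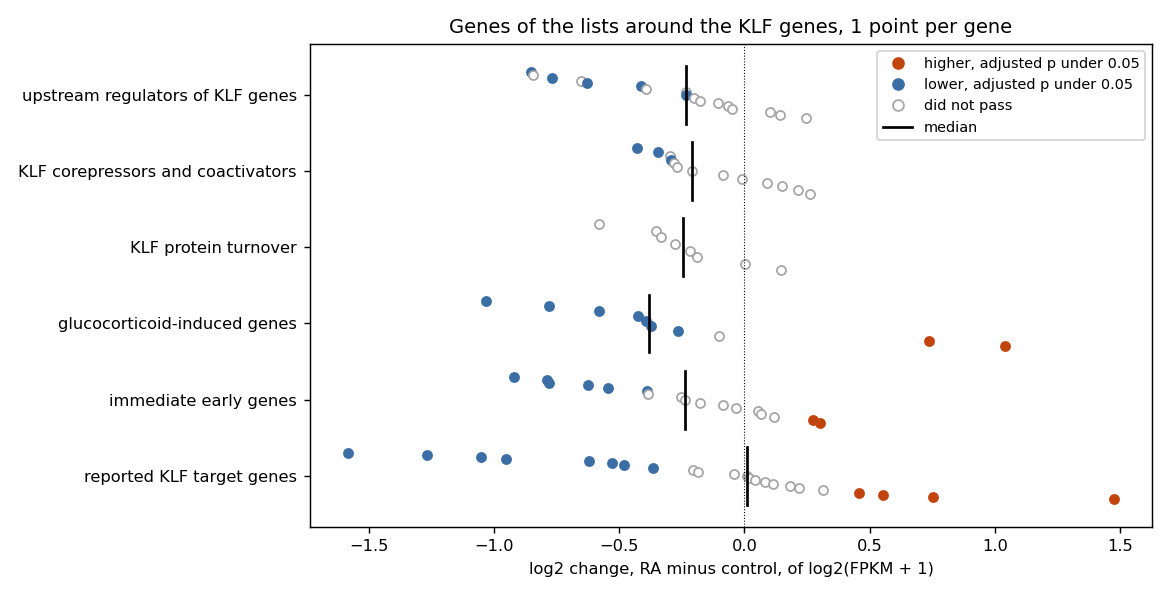
Log2 change, RA minus control, of each kept gene in the 6 lists around the KLF genes; filled points passed at a limma adjusted p under 0.05 and the black bar is the list's median. The glucocorticoid-induced list has its median at -0.38 with CEBPD and NFKBIA on the higher side, and the reported KLF targets spread in both directions around 0.01.

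Genes reported elsewhere as regulated by a KLF went in both directions. Of 23 kept, 8 fell and 4 rose, beside 12.0% and 13.9% of all genes kept. The median log2 change was 0.01, beside -0.01 over all genes. CCND1, a cyclin gene that KLF5 activates, fell to 14.2, 14.4 and 15.1 FPKM in RA, against 31.4, 30.5 and 32.0 FPKM in control (log2 change -1.05 ± 0.06, limma adjusted p = 3.71e-05). The caveolin CAV1 fell to 15.6 ± 2.16 FPKM, against 48.5 ± 1.93 FPKM in control (limma adjusted p = 5.03e-05), and the quinone reductase NQO1 to 13.8 ± 0.323 FPKM, against 34.7 ± 2.96 FPKM (limma adjusted p = 3.94e-05). TAGLN, a smooth muscle gene that KLF4 represses in vascular smooth muscle, rose to 570, 515 and 502 FPKM in RA, against 201, 176 and 191 FPKM in control (log2 change 1.48 ± 0.08, limma adjusted p = 2.49e-05).

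The other calls in the target list were named after their values were seen. CDKN1A, the cell cycle inhibitor that KLF4 and KLF6 activate, fell to 248 ± 12.7 FPKM in RA, against 381 ± 17.3 FPKM in control (limma adjusted p = 0.000654). S1PR1 and THBD, targets of KLF2 in T cells and endothelium, fell with log2 changes of -0.53 and -0.36, and the KLF15 target BCAT2 with -0.48. LGALS3, which KLF3 represses in the mouse, fell with -0.95 (limma adjusted p = 0.000251). PLAU, ENG and BIRC5 rose, with log2 changes of 0.46, 0.75 and 0.56. The KLF reported to regulate them is not given here, nor for CAV1 and NQO1. The genes named therefore do not show how often direction matched the fall of the KLF genes, which was not tested. The other 11 of the 23 kept did not pass, NOS3 among them (log2 change -0.21, limma adjusted p = 0.278). THBD missed the threshold when control replicate 1 was left out (limma adjusted p = 0.0517) or control replicate 2 (0.06). BIRC5 missed it without RA replicate 3 (0.0537) and without control replicates 1 (0.106) and 2 (0.135).

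Markers of the cell types these cultures could hold also differed between the groups. The counts of each list stand beside 12.0% lower and 13.9% higher over all genes kept. Of 10 Sertoli cell markers 5 fell and 2 rose. In 5 of the 6 cases with a library left out INHA lost its call, and 1 rose. The 10 summed to 10045 to 10795 FPKM in RA and 10140 to 10737 FPKM in control, a sum that CLU dominates. Without CLU, the other 9 summed to 671 to 739 FPKM in RA and 1133 to 1406 FPKM in control. CLDN11, named after its values were seen, held most of this smaller sum, at a mean of 467 FPKM in RA and 944 FPKM in control. Of 12 germ cell markers 5 fell, with ZBTB16 shared with the glucocorticoid list, and 1 rose, the RA check gene STRA8. The sums of the 12 were 195 to 209 FPKM in RA and 230 to 233 FPKM in control. UCHL1, named after its values were seen, held the largest part of these sums. Its mean was 105 FPKM in RA and 121 FPKM in control, and it did not pass (limma adjusted p = 0.0719). The 5 falls were 3 without RA replicate 1, control replicate 1 or control replicate 2 and after length correction, with TDRD6 losing its call in 5 of 6 cases with a library left out. Of 10 peritubular myoid and fibroblast markers, TAGLN among them, 8 rose and 1 fell, with sums of 2001 to 2295 FPKM in RA and 822 to 913 FPKM in control. Of 8 endothelial markers kept, 2 rose, ENG among them, and 2 fell, with sums over the 9 in the table of 39.8 to 43.7 FPKM in RA and 37.5 to 38.7 FPKM in control. SOX18, the other endothelial rise, lost its call with any library but RA replicate 1 left out. Of 9 macrophage markers 3 rose and 0 fell (sums 47.1 to 68.9 FPKM in RA and 41.5 to 46.9 FPKM in control), and of 7 Leydig cell markers kept 1 rose and 3 fell (sums over 8 of 230 to 247 FPKM and 208 to 228 FPKM). The Leydig rise, CYP11A1, held the largest part of these sums, at a mean of 159 FPKM in RA and 104 FPKM in control. HSD3B1, the next largest, fell to 57.9 FPKM in RA, against 82.3 FPKM in control. LHCGR and HSD17B3 also fell, and these 4 were named after their values were seen. The macrophage count was 2 rises and 1 fall without RA replicate 3, and 2 rises and 0 falls without any control library. AIF1, among the 3 rises, lost its call with any library but RA replicate 2 left out (limma adjusted p 0.067 to 0.12). No marker of these lists was at 0 in all libraries. The part of cell composition in the KLF values was not tested.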

How the data were processed

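RNA sequencing of 3 RA and 3 control libraries was used, grouped by their titles. The authors deposited FPKM values (fragments scaled by listed gene length and library total) per gene, per the file headers. They also deposited whole-number counts, log2 fold changes and p-values with FDR for genes they called, per the file headers. No source used here gives the aligner, annotation, strand setting or genome build.

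The 14567 genes averaging 0.5 FPKM or more over 6 libraries were fitted by group in limma 3.58.1 (R 4.3.3) after adding 1 to FPKM and taking log2, with the trend option on. P-values are two-sided and were adjusted by Benjamini-Hochberg across these genes; those under 0.05 passed. No p-value is given for the 10 KLF genes.

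Multiplying FPKM by length and library total recovered reads that were whole to within 0.05 for 99.8% to 99.9% of non-zero values. Totals were medians over the 4377 genes that have counts too. On these reads, without 42 genes that were not whole, edgeR 4.0.16 called 1965 genes higher and 1685 lower, and DESeq2 1.42.0 was run as well. Replicates of a group differed by more than sampling noise. The fit was first tested on simulated libraries.

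The members, lists and tests were chosen with earlier results of these data known. Named were the 10 members, KLF and SP genes that passed and the kept one of highest mean, up to 4 genes of smallest p in each other list, the 3 genes nearest to the 2 members of largest change (mean of at least 1 FPKM) and 4 RA check genes. Of these, KLF16 and SP1 are the highest by mean. Genes named outside this rule, those of the marker lists among them, were named with their values known, whether or not the text says so there. KLF18 and PRODH were not matched by symbol. Sequences of promoters and proteins were not analysed here. Alternatives were other pseudocounts, filters, scalings, limma settings, a replicate block, a lowess correction for gene length (span 0.3), both together, and each library left out.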

Additional observations from a re-analysis of the deposited data

How the results depend on the processing

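KLF2, KLF4, KLF5, KLF10 and KLF11 were lower at an adjusted p under 0.05 in all 20 alternatives run. KLF6 was so in 15, KLF15 in 13, KLF3 in 3, KLF13 in 1 and KLF9 in 0. All alternatives reuse the same libraries, and the members were picked with this contrast known. These counts therefore describe how the calls depend on the settings and do not test the members. Of 200 log2 changes of the members, 198 kept their sign; KLF9 was at 0.14 with limma array weights, whose estimation stopped before convergence, and between -0.44 (without RA replicate 1) and 0.0021 (without RA replicate 2) with each library left out. Members lower numbered 7 with all libraries, 5 to 8 with each library left out, 6 with edgeR, 6 with quantile normalization and 5 with no filter on low values, and 0 were higher in any setting. Genes higher in RA numbered 2019 (1201 to 2248 with a library left out, 3410 with array weights) and genes lower 1750 (992 to 2258, and 3621 with array weights). Genes lower were 1685 of 14538 with edgeR, 1775 of 14567 with quantile normalization and 1462 of 26469 with no filter on low values. The cause of these differences was not tested. Same-numbered libraries of the groups did not deviate together for numbers 1 and 2 (r = -0.21 and -0.086 across genes). Those numbered 3 did so in part (r = 0.34, the highest value for both libraries). Neither RA replicate 1 nor RA replicate 2 correlated best with its own number, so the numbers were not taken as pairs. With the replicate block 1610 genes were higher and 1405 lower, with 7 members lower, and with block and length correction together 1761 and 1766. Over the other genes named or listed, 134 of 3445 values lost a call and 88 gained one among the alternatives. The sign was opposite in 98 values, from 32 of 173 genes, and in 0 of these did the gene pass with either setting; KLF16 (-0.05 without RA replicate 2) and SP1 (0.11 with length correction) were among them. With 3 libraries a group, a gene that did not pass may still differ.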

Other observations

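The genes next to the KLF loci were read from the same fit, a check added after seeing the data and placed by position alone. The nearest kept gene on each side of each KLF gene, and the ncRNA overlapping KLF3, gave 21 genes. Of these, 2 rose and 2 fell at a limma adjusted p under 0.05, beside 13.9% and 12.0% of all genes, and their median log2 change was 0.0022. On the 2 sides of KLF4, the nearest kept genes were RAD23B and FAM206A. RAD23B, a DNA repair gene, was 111166 bases away (log2 change -0.22, limma adjusted p = 0.0668). FAM206A was 1289420 bases away, the largest distance of the 21. It was at 8.93 FPKM in RA and 6.18 FPKM in control (log2 change 0.46, limma adjusted p = 0.0241). Next to KLF2, EPS15L1 had a log2 change of 0.09 (limma adjusted p = 0.386), and the clathrin adaptor gene AP1M1 was at 29.1 FPKM in RA and 23.6 FPKM in control (0.29, limma adjusted p = 0.0239). KLF5 has as neighbours PIBF1 (log2 change -0.22, limma adjusted p = 0.235) and, on its other side at a distance of 594423 bases, KLF12 (-0.35, limma adjusted p = 0.172). Beside KLF9, TMEM2, a cell-surface hyaluronidase gene 1213214 bases away, fell to 13.1 FPKM in RA, against 26.1 FPKM in control (limma adjusted p = 0.00286). CYS1, 7060 bases from KLF11, fell to 6.25 FPKM in RA, against 7.72 FPKM in control (limma adjusted p = 0.0451). TMEM2 kept its call with each library left out in turn, while FAM206A lost it in 4 of 6 cases, AP1M1 in 3 and CYS1 in 5.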
